A study of Mus musculus with 2 samples.

Results

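The genes described here are 39 genes of the endoplasmic reticulum, the compartment where secreted and membrane proteins are threaded through a membrane channel, folded, joined by disulfide bonds and inspected. They were listed by name, and all 39 have a row among the 14789 gene symbols measured. By role they are 11 chaperones and co-chaperones, 6 disulfide isomerases, 5 genes of protein degradation, 5 stress regulators, 7 subunits of the translocon and its associated complex, 3 of signal peptidase and 2 of the signal recognition particle.

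The cells came from the pancreas of adult Tff2CreERT2; R26-tdTomato mice. In these mice a tamoxifen-dependent Cre driven from Tff2 switches on a red fluorescent protein, so the label marks cells that used Tff2 at the time of induction and their descendants. The mice were tamoxifen induced, and sorted cells were CD45-, TER119-, EpCAM+ and RFP+, with dead cells set aside by DAPI. Both samples, 2 biological replicates, belong to 1 group, there is no control group, and no label ties a cell to a replicate, so all 728 cells were treated as 1 sample without a test.

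Acinar cells of the pancreas make digestive enzymes, and few cells send as much protein through the endoplasmic reticulum. A nascent enzyme is recognised by the signal recognition particle, brought to the Sec61 channel, trimmed by signal peptidase and folded by chaperones and disulfide isomerases. Proteins that fail to fold are pulled back into the cytosol and degraded, and a shortage of folding capacity turns on the unfolded protein response.

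Cells were placed in 4 classes by transcript counts, where 1 count is 1 unique molecular identifier (UMI). Acinar cells had 10% or more of their UMIs from Ctrb1, Try4, Cela1 and Prss2, ductal cells 2 or more UMIs of Krt19 and Epcam, endothelial cells 5 or more of Kdr, Cdh5, Pecam1 and Egfl7, and B cells 2 or more of Cd79a, Cd79b and Ms4a1. This gave 262 acinar, 32 ductal, 160 endothelial and 101 B cells. Another 164 cells met none of the rules and 9 met more than 1, and both were left out of the comparisons. All 17 further acinar markers, 11 ductal, 9 endothelial and 11 B cell markers were highest in their own class. Endothelial and B cells are not what a CD45-, EpCAM+ sort should hold, and transcripts of erythroid genes, at 18640 counts per 1000000 UMIs (CPM) in the endothelial class, were also present. The median cell held 2102 UMIs in the acinar class, 3295 in the ductal, 1889 in the endothelial and 1622 in the B class. Barcodes carried the ending 1 (667 cells) or 2 (61 cells), and 7 barcode sequences occurred under both endings.

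Digestive enzymes took 70.3% of the acinar UMIs, against 1.72% in ductal, 2.13% in endothelial and 1.83% in B cells. A level relative to all UMIs is therefore a share of a pool that the enzymes fill in 1 class only. Each comparison is given with both totals, all UMIs and UMIs outside 33 measured enzyme genes, and neither is a measure of molecules per cell. Outside the enzymes the median cell held 627 UMIs in the acinar class, 3251.5 in the ductal, 1825 in the endothelial and 1602 in the B class. Higher and lower mean a ratio of 2 or more in either direction, among genes with at least 50 UMIs over both classes. Since this floor was set on the sum of both classes, a gene with few UMIs in the other class passed only by being high in acinar cells, so counts of calls are descriptions and not support. Intervals are exact 95% intervals for counting error only and hold neither variation between animals nor free RNA.

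The 39 genes together took 0.625% of all acinar UMIs (0.611 to 0.640), 0.561% of ductal (0.520 to 0.604), 0.493% of endothelial (0.471 to 0.516) and 0.360% of B cell UMIs (0.334 to 0.387). Outside the enzymes the acinar share was 2.11% (2.06 to 2.16), and the other classes moved little, to 0.570%, 0.504% and 0.366%. The median acinar cell held 15 UMIs of the 39 genes and the range was 0 to 308. A median ductal cell held 20 (9 to 67), an endothelial cell 9 (2 to 73) and a B cell 6 (0 to 77).

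Against ductal cells, with all UMIs in the total, 9 of the 32 genes over the floor were higher in acinar cells and 8 lower. Over all 958 genes tested, 11.1% were higher and 71.5% lower, and the median log2 ratio was -2.09 against -0.00 for the 39. Outside the enzymes 24 were higher and 2 lower, where 22.1% of all genes tested were higher and 34.5% lower, and the median was 1.73 against -0.42 over all genes. The summed level of the 39 genes was 1.12 (1.03 to 1.21) times the ductal level with all UMIs and 3.69 (3.41 to 3.99) times outside the enzymes. The 6 disulfide isomerases held 2726 of the 6901 acinar UMIs of the 39 genes and 78 of the 701 ductal ones. They weigh heavily in the sum, which is not a level shared by all 39. Against endothelial cells 9 of 34 were higher and 9 lower (7.32% and 80.4% of all genes tested), or 23 and 2 outside the enzymes (14.8% and 50.9%). Against B cells 12 of 32 were higher and 3 lower (19.6% and 60.4%), or 27 and 0 outside the enzymes (31.4% and 29.6%). Without other secreted acinar products and immunoglobulins as well, the counts were 26 higher and 0 lower than in ductal cells (28.1% and 23.7% of all genes tested), 26 and 1 than in endothelial cells (20% and 42.9%) and 31 and 0 than in B cells (39.8% and 22.7%). The summed ratios outside the enzymes alone were 4.18 (3.97 to 4.40) and 5.74 (5.32 to 6.21). With stricter class thresholds (159 acinar and 20 ductal cells) and all UMIs, 5 genes were higher and 6 lower than in ductal cells. The summed ratio was 0.987, and the share over all genes was not counted at these thresholds. All 3 comparisons share the acinar cells, so they are not independent.

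With all UMIs in the total, 7 genes were higher in acinar cells than in each of the other classes, namely Pdia2, Erp27, P4hb, Hyou1, Sel1l, Edem1 and Chac1. With the same total 3 genes were lower than in each, namely Calr, Spcs2 and Srp14. With stricter class thresholds and after thinning to 1000 UMIs, Pdia2, Erp27 and P4hb kept the call against each class in both settings. Hyou1, Sel1l, Edem1 and Chac1 did not. Calr, Spcs2 and Srp14 lost the call against ductal and B cells after thinning. Outside the enzymes 22 genes were higher against each class and 0 lower against each. The share of all genes called the same way against each class was not counted, so these counts are descriptions only. Under the floor in all 3 comparisons were Dnajb9, Atf6, Ddit3, Trib3 and Spcs3.

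**Figure D1:**
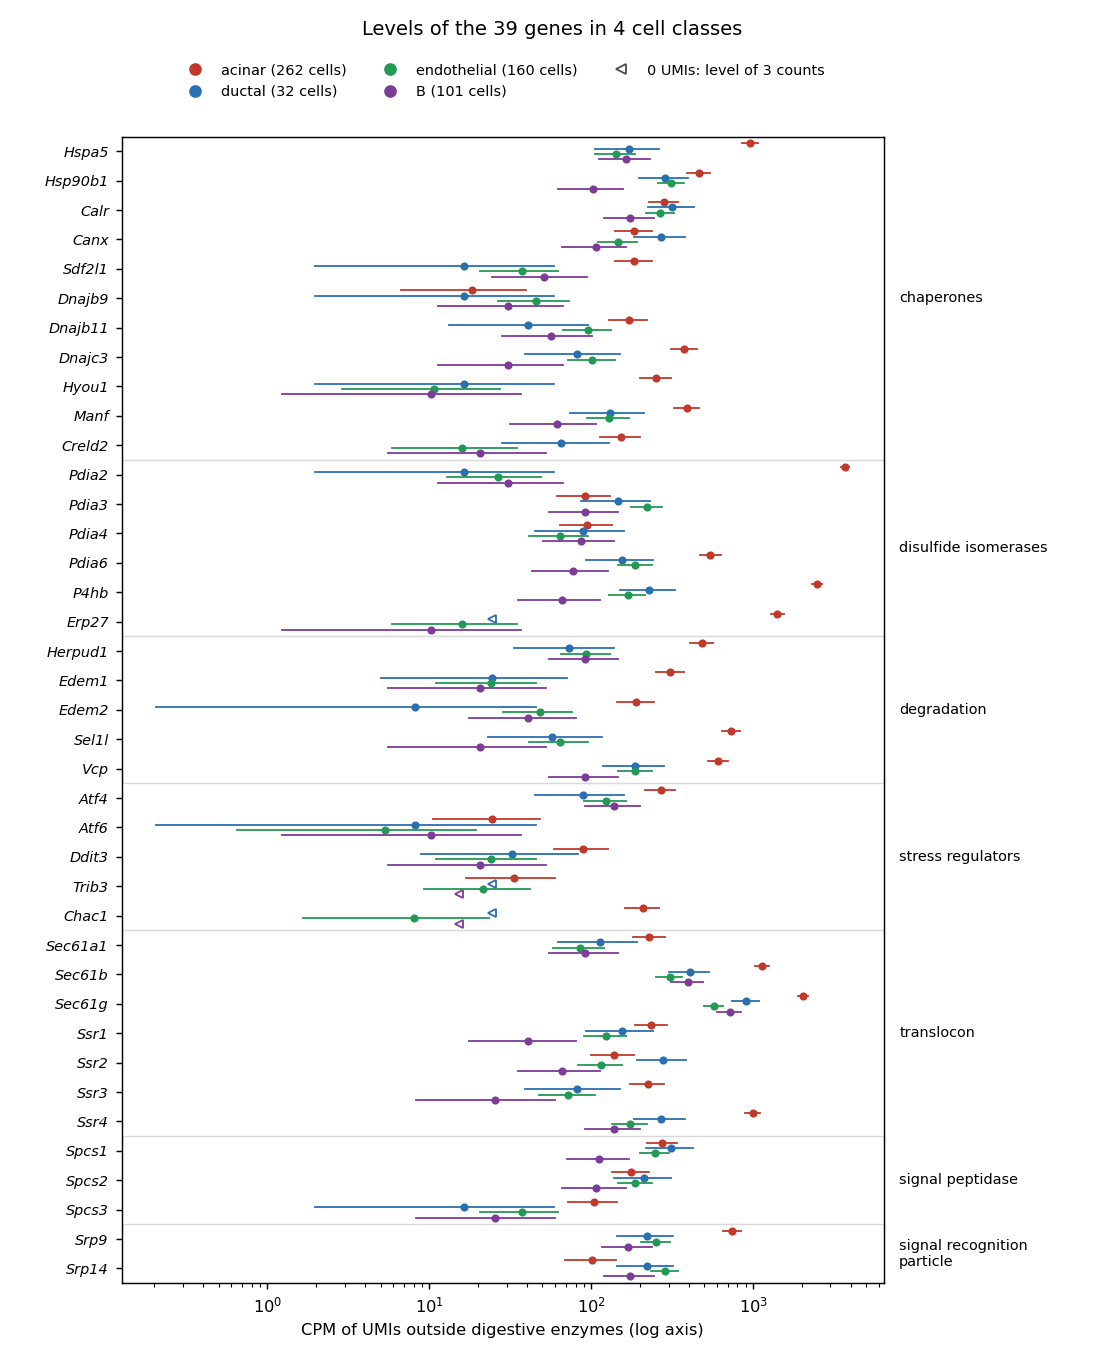
Level of each of the 39 genes in the 4 cell classes, in CPM of UMIs outside the digestive enzymes on a log axis, with exact 95% Poisson intervals and genes grouped by role. Acinar points lie far to the right for Pdia2, Erp27 and P4hb, and to the left of the endothelial points for Pdia3 and Srp14.

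Among the disulfide isomerases were the genes with the highest acinar ratios, Pdia2 and Erp27. Pdia2 encodes an isomerase known from the pancreas (gene at chr17:26195999-26199087, GRCm38, with UMIs counted per gene and not per exon). It had 1216, 2, 10 and 6 UMIs in acinar, ductal, endothelial and B cells, or 3709, 16.3, 26.7 and 30.7 CPM outside the enzymes. Acinar cells stood far above the other classes, and their intervals did not meet. The ratio to ductal cells was 68.9 (19.0 to 569.5) with all UMIs and 228 (63.0 to 1884) outside the enzymes, and that to endothelial cells was 42.2 (22.8 to 88.1) and 139 (75.3 to 290.4). It was seen in 81.3, 6.25, 5.62 and 5.94% of the cells of the 4 classes, and in 63.0, 6.25, 2.50 and 2.97% after each cell was thinned to 1000 UMIs.

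Erp27, a member of the family without the catalytic cysteines that binds unfolded protein (gene at chr6:136907311-136922180), had 461, 0, 6 and 2 UMIs, or 1406, 0, 16.0 and 10.2 CPM outside the enzymes. The count of 0 in ductal cells allows a level of up to 24.4 CPM, so acinar cells were at least 57.6-fold higher, or at least 17.4-fold with all UMIs. Against B cells the ratio was 138 (37.9 to 1139) outside the enzymes.

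The few UMIs of both genes in the other classes can be set beside the enzyme UMIs found there. Per 10000 enzyme UMIs, Pdia2 had 15.7 UMIs in acinar cells (14.8 to 16.6), 9.30 in ductal (1.13 to 33.6), 12.3 in endothelial (5.89 to 22.6) and 16.4 in B cells (6.03 to 35.8). Erp27 had 5.94 (5.41 to 6.51), 0 (0 to 17.2), 7.37 (2.71 to 16.0) and 5.48 (0.664 to 19.8). The intervals of both genes in the other classes are wide and include the acinar value, and with so few UMIs free RNA cannot be told apart from low expression there. P4hb had 10.4 UMIs per 10000 enzyme UMIs in acinar cells and 130.2, 77.4 and 35.6 in the others, above the acinar value with intervals that do not meet it. The interval also includes the acinar value for the 3 endothelial UMIs of Chac1, at 3.69 (0.760 to 10.8) against 0.877, and for the 2 B cell UMIs of Hyou1, at 5.48 (0.664 to 19.8) against 1.06.

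P4hb, the archetypal protein disulfide isomerase and a subunit of prolyl hydroxylase (gene at chr11:120560298-120573253), had 810, 28, 63 and 13 UMIs and 2471, 228, 168 and 66.4 CPM outside the enzymes. All 4 classes held it, and acinar cells were 3.28 (2.25 to 4.96) times the ductal level with all UMIs and 10.8 (7.45 to 16.4) times outside the enzymes. Pdia6, an isomerase that acts with Hspa5, had 543, 155, 187 and 76.7 CPM and was 1.06 (0.660 to 1.80) times the ductal level with all UMIs and 3.51 (2.18 to 5.97) outside the enzymes. Pdia3, the partner of calreticulin and calnexin in glycoprotein folding, went the other way, with 30, 18, 83 and 18 UMIs and 91.5, 146, 222 and 92.0 CPM. Acinar cells were below endothelial cells with both totals, at 0.125 (0.0797 to 0.192) and 0.413 (0.262 to 0.634) times, and Pdia3 was under the floor against ductal and B cells. Pdia4 had 31, 11, 24 and 17 UMIs and 94.6, 89.5, 64.1 and 86.9 CPM, and its ratio to endothelial cells was 0.448 (0.254 to 0.797) with all UMIs and 1.48 (0.838 to 2.63) outside the enzymes.

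The makeup of the isomerase transcripts does not depend on either total. Pdia2 made up 44.6% of the 2726 isomerase UMIs of acinar cells (42.7 to 46.5), P4hb 29.7%, Erp27 16.9% and Pdia6 6.53%. In ductal cells, with 78 isomerase UMIs, P4hb made up 35.9%, Pdia6 24.4% and Pdia3 23.1%. Pdia3 was 32.4% of the 256 UMIs in endothelial cells (26.7 to 38.5) and 25.4% of the 71 in B cells (15.8 to 37.1), against 1.10% in acinar cells (0.744 to 1.57). For 5 of the 6 genes, all but P4hb, the acinar interval lay apart from those of the other 3 classes.

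**Figure D2:**
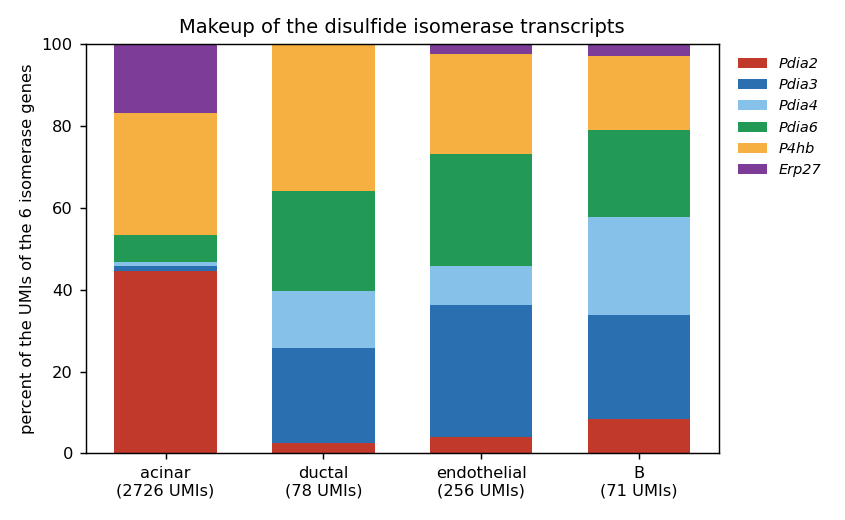
Share of each of the 6 disulfide isomerase genes in the summed isomerase UMIs of each class, in percent. Pdia2 and Erp27 fill most of the acinar bar, where Pdia3 is 1.10%, against 23.1% to 32.4% in the other 3 classes.

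The chaperones were divided. Hspa5 (BiP, gene at chr2:34771970-34777547) is the main Hsp70 chaperone of the lumen and holds the stress sensors inactive while it is in surplus. It had 312, 21, 53 and 32 UMIs and 952, 171, 142 and 164 CPM outside the enzymes, and was 1.68 (1.08 to 2.76) times the ductal level with all UMIs and 5.57 (3.58 to 9.12) times outside them. Hyou1, the large nucleotide exchange factor for Hspa5, was low in all other classes, with 82, 2, 4 and 2 UMIs, and its ratio to ductal cells was 4.65 (1.25 to 39) or 15.4 (4.12 to 129). Sdf2l1, which keeps Hspa5 clients from aggregating, had 60, 2, 14 and 10 UMIs and a ratio of 3.40 (0.901 to 28.7) or 11.2 (2.98 to 95.0). Dnajc3, a co-chaperone that hands clients to Hspa5, had 123, 10, 38 and 6 UMIs and a ratio of 1.39 (0.733 to 2.98) or 4.61 (2.42 to 9.85), and Manf, a secreted factor that binds Hspa5, 128, 16, 48 and 12 UMIs and 0.907 (0.537 to 1.63) or 3.0 (1.78 to 5.40). Both were called higher only outside the enzymes in the comparison with ductal cells.

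The lectin chaperones and the Hsp90 of the lumen did not share that ratio. Calr, the soluble lectin that also buffers calcium, had 92, 39, 100 and 34 UMIs and 281, 317, 267 and 174 CPM, and Canx, its membrane-bound relative, 60, 33, 55 and 21 UMIs and 183, 269, 147 and 107 CPM. Both were lower in acinar than in ductal cells with all UMIs, at 0.267 (0.182 to 0.399) and 0.206 (0.133 to 0.325) times. Outside the enzymes they were 0.884 (0.602 to 1.32) and 0.682 (0.438 to 1.08) times, with intervals that include 1. Hsp90b1 (Grp94) had 152, 35, 117 and 20 UMIs and changed side, from 0.492 (0.339 to 0.733) times the ductal level to 1.63 (1.12 to 2.42). Outside the enzymes 7 of the 10 chaperones over the floor were higher than in ductal cells, 0 lower and 3 between, and these 3 were Hsp90b1, Calr and Canx. Dnajb11, another J-domain co-chaperone of Hspa5, had 56, 5, 36 and 11 UMIs and Creld2 50, 8, 6 and 4, and both were above ductal cells outside the enzymes, at 4.20 (1.70 to 13.4) and 2.34 (1.10 to 5.72). Dnajb9, with 6, 2, 17 and 6 UMIs, was under the floor throughout and its interval outside the enzymes against endothelial cells, 0.403 (0.130 to 1.07), includes 1.

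**Figure D3:**
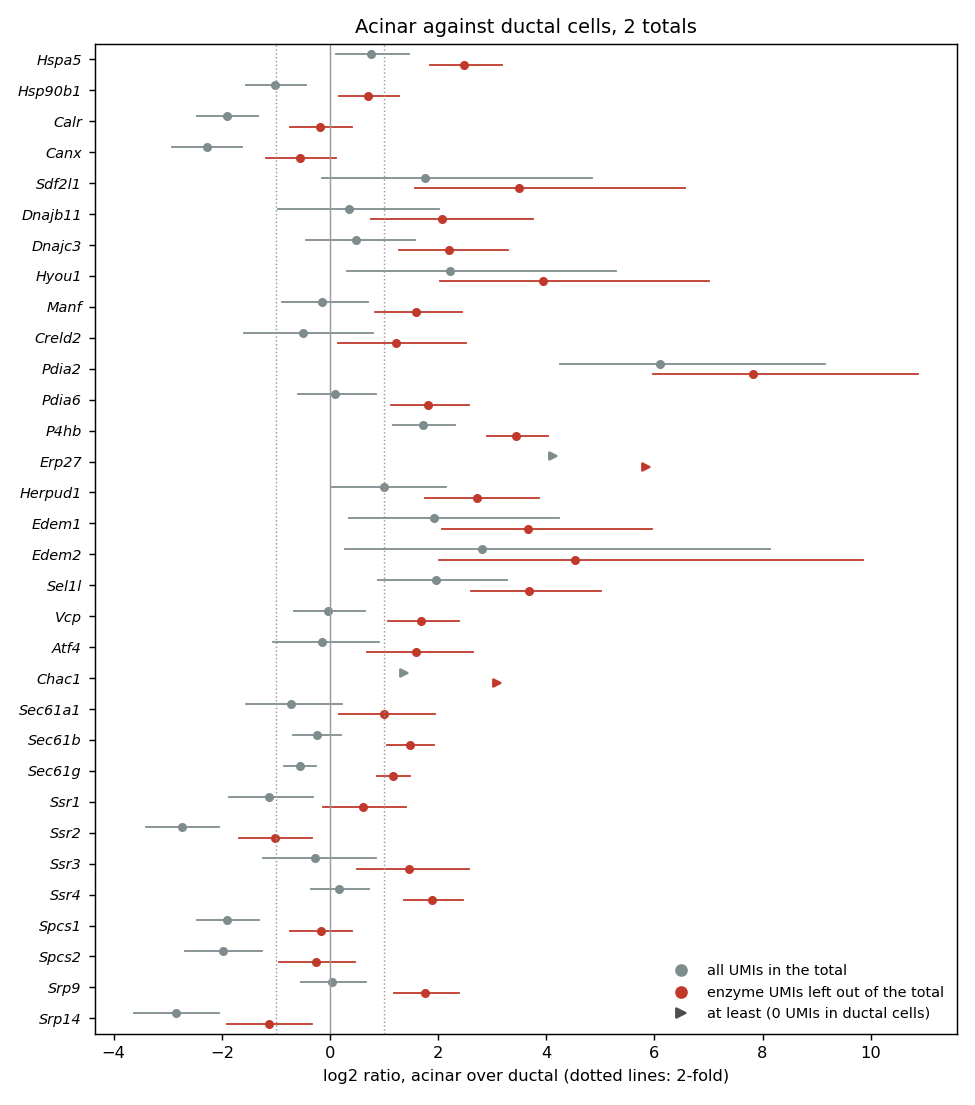
Log2 ratio of the acinar to the ductal level for the 32 genes over the floor, with all UMIs (grey) and with enzyme UMIs left out (red), and exact 95% intervals. Leaving the enzymes out moves every gene by the same amount to the right, and Srp14 and Ssr2 are the ones that remain at least 2-fold lower.

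Many genes of the unfolded protein response carry in their promoter the endoplasmic reticulum stress element, abbreviated ERSE, which is bound by ATF6 together with NF-Y. RefSeq windows of 300 bases, from 250 before to 50 after the annotated start (GRCm38.p6), matched 32 of the 39 genes and were searched on both strands for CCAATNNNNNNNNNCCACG (ERSE), for ERSE-II, which is ATTGG, 1 free base and CCACG, and for CCACG alone. ERSE was found in 7 of the 32 windows' genes (21.9%) and in 37 of 26994 genes with a window (0.137%), and ERSE-II in 2 (6.25%) and 12 (0.0445%). CCACG, which both longer motifs contain, was found in 25 (78.1%) and in 35.5% of all genes. The 39 genes were listed by name and include genes of this response, so these shares are descriptions and not support. The 7 genes without a window, Hyou1, Manf, Erp27, Atf6, Sec61a1, Ssr2 and Spcs3, were not searched. The count of chaperones with ERSE given next therefore does not cover Hyou1 and Manf. The matched sites are shown 5′ to 3′ on the strand of the gene, since ERSE was found in 6 of the 11 chaperones and in Pdia6 and ERSE-II in Dnajb11 and Herpud1, with the fixed letters of the motif in capitals:
Hspa5: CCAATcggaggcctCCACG
Hsp90b1, first: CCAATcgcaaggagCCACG
Hsp90b1, second: CGTGGtgaggcacgATTGG
Calr: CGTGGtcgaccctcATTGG
Canx: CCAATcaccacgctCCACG
Dnajc3: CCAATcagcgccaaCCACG
Creld2: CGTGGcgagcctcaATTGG
Pdia6: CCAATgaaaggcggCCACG
Herpud1 (ERSE-II): ATTGGgCCACG
Dnajb11 (ERSE-II): ATTGGcCCACG

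The second site of Hsp90b1 and those of Calr and Creld2 read in the reverse orientation. The Hspa5 site lies 65 to 47 bases before the start, at chr2:34772025-34772043, counted from the RefSeq start, and GENCODE M21 begins the gene earlier, so the site lies within its gene model. The Dnajb11 site lies after the start, and the others lie before it. For comparison, the 250 bases before the start of Hspa5 (chr2:34771840-34772089, plus strand, ERSE letters in capitals) and of Pdia2 (chr17:26199088-26199337, minus strand) are shown, the latter with no match to ERSE or ERSE-II.
Hspa5: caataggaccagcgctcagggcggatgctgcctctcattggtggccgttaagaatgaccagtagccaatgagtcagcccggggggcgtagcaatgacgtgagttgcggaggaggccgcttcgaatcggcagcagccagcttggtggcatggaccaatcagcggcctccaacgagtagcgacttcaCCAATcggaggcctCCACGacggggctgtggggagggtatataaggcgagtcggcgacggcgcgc
Pdia2: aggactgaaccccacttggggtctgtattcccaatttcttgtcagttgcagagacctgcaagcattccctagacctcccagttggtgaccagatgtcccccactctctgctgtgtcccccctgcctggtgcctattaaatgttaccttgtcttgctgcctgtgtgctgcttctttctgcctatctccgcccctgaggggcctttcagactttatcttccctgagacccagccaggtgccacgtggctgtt

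The 7 genes with ERSE did not share an acinar ratio. With all UMIs 0 of the 7 were higher than in ductal cells and 3 lower (11.1% and 71.5% of all genes tested), and outside the enzymes 4 were higher, Hspa5, Dnajc3, Creld2 and Pdia6, and 0 lower (22.1% and 34.5%). Of the 18 genes over the floor with a window that held neither motif, 7 were higher and 4 lower with all UMIs, and 14 and 1 outside the enzymes, Pdia2, P4hb and Sel1l among the higher. A match is a string of letters, not a measured binding site.

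Outside the enzymes all 5 degradation genes were higher in acinar cells than in ductal, endothelial and B cells, where 22.1%, 14.8% and 31.4% of all genes tested were. With all UMIs 2 of the 5, Sel1l and Edem1, were higher than in each of them. Sel1l, the scaffold of the membrane ubiquitin ligase that clears misfolded protein, had 239, 7, 24 and 4 UMIs and 729, 57.0, 64.1 and 20.4 CPM, and was 3.87 (1.85 to 9.73) times the ductal level with all UMIs and 12.8 (6.12 to 32.2) outside the enzymes. Edem1 and Edem2, which trim mannose from proteins marked for disposal, had 101, 3, 9 and 4 and 62, 1, 18 and 8 UMIs. Edem1 was 3.81 (1.27 to 18.8) times the ductal level and Edem2, with 1 ductal UMI, 7.03 (1.22 to 282) times with all UMIs. Herpud1, a membrane partner of the ligase, had 158, 9, 35 and 18 UMIs and 1.99 (1.02 to 4.43) or 6.58 (3.38 to 14.7) times the ductal level. Vcp, the cytosolic ATPase that extracts the substrates and serves other pathways too, had 198, 23, 70 and 18 UMIs, stood level with ductal cells with all UMIs, at 0.975 (0.632 to 1.57), and above them outside the enzymes, at 3.23 (2.09 to 5.21).

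Few transcripts of the stress regulators were counted. Chac1, which degrades glutathione and is a target of the Atf4 arm, had 68, 0, 3 and 0 UMIs, in 47 of 262 acinar cells and in 0 of 32 ductal and 0 of 101 B cells. With 3 counts in place of the 0 ductal UMIs, it was 2.57-fold higher than in ductal cells with all UMIs and 8.5-fold outside the enzymes. Its ratio to endothelial cells outside the enzymes was 25.9 (8.49 to 129), which rests on 3 endothelial UMIs that cannot be told apart from free RNA. Atf4, the transcription factor of that arm, had 88, 11, 46 and 27 UMIs and was 0.907 (0.483 to 1.88) times the ductal level with all UMIs and 3.0 (1.60 to 6.23) outside the enzymes. Atf6, a membrane-held sensor, had 8, 1, 2 and 2 UMIs, Ddit3 (Chop), a factor of prolonged stress, 29, 4, 9 and 4, and Trib3, a pseudokinase induced by Atf4 and Ddit3, 11, 0, 8 and 0. All 3 were under the floor, and 58.6% of the acinar Ddit3 UMIs came from 5 cells.

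Transcripts of all 7 translocon genes were counted in each class. Sec61g and Sec61b, the small subunits of the channel, had 2032, 903, 572 and 716 and 1132, 407, 304 and 394 CPM outside the enzymes in acinar, ductal, endothelial and B cells. With all UMIs both lay between 0.680 and 1.13 times each other class. Outside the enzymes they were 2.25 (1.84 to 2.77) and 2.78 (2.07 to 3.82) times the ductal level. Sec61a1, the pore itself, had 75, 14, 32 and 18 UMIs and was 2.01 (1.13 to 3.85) times the ductal level outside the enzymes, just past the ratio of 2. Within the associated TRAP complex the 4 subunits parted. Ssr4 had 994, 269, 174 and 138 CPM and was 3.70 (2.58 to 5.47) times the ductal level, Ssr3 2.74 (1.41 to 5.94) and Ssr1 1.52 (0.910 to 2.66), while Ssr2 was 0.496 (0.311 to 0.799) times, all outside the enzymes. Ssr2 was also the 1 gene of the 39 that differed 2-fold between ductal and endothelial cells, at 2.41 (1.49 to 3.87) times, among 19 over the floor (10.7% of all genes tested were higher and 28.8% lower).

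Signal peptidase and the signal recognition particle were not raised together. Spcs1 and Spcs2, noncatalytic subunits of the peptidase, had 90, 38, 93 and 22 and 58, 26, 70 and 21 UMIs and were lower in acinar than in ductal cells with all UMIs, at 0.268 (0.182 to 0.403) and 0.253 (0.157 to 0.418) times. Outside the enzymes they were 0.888 (0.601 to 1.33) and 0.836 (0.518 to 1.38), so a difference from ductal cells was not detectable at this depth with that total. Against B cells Spcs1 was called higher outside the enzymes, at 275 against 112 CPM. Spcs3, with 34, 2, 14 and 5 UMIs, was under the floor and not called. Its level outside the enzymes was 104 CPM in acinar cells (71.8 to 145). In ductal, endothelial and B cells it was 16.3 (1.97 to 58.8), 37.4 (20.4 to 62.7) and 25.6 (8.30 to 59.6). Srp9 and Srp14 form the heterodimer that pauses translation, and their transcripts went opposite ways. Srp9 had 744, 219.7, 251 and 169 CPM outside the enzymes and Srp14 101, 219.7, 286 and 174. Relative to endothelial cells Srp9 was 2.96 (2.33 to 3.80) times and Srp14 0.352 (0.231 to 0.525) times. With all UMIs Srp9 was 0.90 (0.707 to 1.15) times and Srp14 0.107 (0.0701 to 0.159) times, so that Srp14 was lower in acinar than in ductal and endothelial cells with both totals.

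Among the other classes, ductal and endothelial cells differed by 2-fold in 1 gene, and B cells were below both in the summed share. Outside the enzymes 18 of 19 genes lay within 2-fold between ductal and endothelial cells, and 7 of 10 between ductal and B cells, where Hsp90b1, Canx and Spcs1 were higher in ductal cells (31.5% of all genes tested were, and 21.8% were lower). Between endothelial and B cells 8 of 21 were higher in endothelial cells and 0 lower (43.7% and 12.6% of all genes tested), among them Hsp90b1 at 3.06 (1.89 to 5.19) and Ssr1 at 3.0 (1.40 to 7.37). Of the 101 B cells, 8 held at least 3 UMIs of plasma cell markers, and the 39 genes took 0.396% of their UMIs (0.333 to 0.467), against 0.352% in the other 93 (0.324 to 0.382).

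A list of 104 other genes of the same pathway was placed beside these, of which 95 had a row. Of the 35 over the floor against ductal cells, 7 were higher and 14 lower with all UMIs (11.1% and 71.5% of all genes tested). Outside the enzymes 18 were higher and 4 lower (22.1% and 34.5%). The medians were -0.68 with all UMIs and 1.04 outside the enzymes. The summed level of this list outside the enzymes was 1.57 (1.47 to 1.67) times the ductal level, below that of the 39 genes. The 5 with the highest ratio were Fkbp11, a peptidyl-prolyl isomerase (43.7 times outside the enzymes), Asns, asparagine synthetase and a target of Atf4 (32.6), Bet1, a vesicle fusion protein (24.4), Ero1lb, the oxidase that recharges the isomerases (10.6 with 3 counts in place of 0 ductal UMIs, exact lower limit 8.45), and Tram1, a partner of the translocon (10.0). With 3 ductal UMIs the interval for Fkbp11 was 14.8 to 213, and with 1 that for Asns was 5.70 to 1303 and that for Bet1 4.22 to 977. The 5 with the lowest were Stt3b, a catalytic subunit of oligosaccharyltransferase (0.0896), Sep15, a selenoprotein (0.298), Ost4, another subunit of the transferase (0.390), Sec62, which serves translocation after synthesis (0.481), and Sdf4 (0.730). Of 8 export genes over the floor against ductal cells, 2 were higher and 1 lower with all UMIs (11.1% and 71.5% of all genes tested), and 7 and 0 outside the enzymes (22.1% and 34.5%). Against endothelial cells 5 of 13 were higher and 2 lower outside the enzymes (14.8% and 50.9%). Of the 27 cytosolic and mitochondrial chaperones with a row, 11 passed the floor against ductal cells. With all UMIs 0 of these were higher and 10 lower (11.1% and 71.5% of all genes tested). Outside the enzymes 1 was higher and 2 lower (22.1% and 34.5%), with a median of -0.59.

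Acinar cells of the 2 barcode endings differed. Outside the enzymes 16 of 30 genes over the floor were higher in the 217 acinar cells of ending 1 than in the 45 of ending 2, and 1 was lower, where 24.9% of all genes tested were higher and 6.48% lower. Among the 16, the intervals of Calr, Creld2, Sec61a1, Ssr1 and Ssr3 include 1, on 4, 2, 3, 3 and 3 UMIs under ending 2. With all UMIs 16 were higher and 0 lower (30.2% and 5.19%). Hspa5 stood at 1037 against 184 CPM, a ratio of 5.64 (2.56 to 15.5). Vcp stood at 657 against 123 CPM, a ratio of 5.36 (2.06 to 19.9), Sel1l at 786 against 214 CPM, a ratio of 3.67 (1.75 to 9.22), and P4hb at 2636 against 980.1 CPM, a ratio of 2.69 (1.89 to 3.96). Pdia6 was 3.83 (1.61 to 11.9) times as high under ending 1. Canx had 60 UMIs against 0, a ratio of 2.21 with 3 counts in place of 0 and an exact lower limit of 1.74. Pdia2 and Erp27 did not follow, at 3719.9 against 3614 CPM, a ratio of 1.03 (0.851 to 1.26) and 1.23 (0.882 to 1.76), nor did Sec61g, at 0.834 (0.658 to 1.07). Ssr4 was the reverse, at 884 against 1991 CPM, a ratio of 0.444 (0.337 to 0.592). Of the 7 genes with an ERSE, 6 were among the 16 higher (all but Dnajc3), as were 7 of the 17 over the floor whose window held neither motif. The intervals that include 1 were those of Calr and Creld2 with an ERSE and of Ssr1 and Ssr3 with neither motif, and Canx had 0 UMIs under ending 2.

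Several measures of the cells moved with the endings. The median acinar cell held 2248 UMIs under ending 1 and 1644 under ending 2, and 704 and 403 outside the enzymes. The median at 1000 UMIs was 204 and 148 genes. Those 1000 UMIs include the enzymes, whose median share was 69.7% and 74.8%, so the gene count is not separate from that share. Mitochondrial transcripts were 4.02% and 1.97% of UMIs outside the enzymes, and immediate early genes 2297 and 306 CPM. Immediate early genes also differed between classes, at 2099 CPM outside the enzymes in acinar, 5778 in ductal, 3974 in endothelial and 2622 in B cells. The part of these in the differences above was not tested, and the endings cannot be tied to the replicates or told apart from batch. With cells of ending 1 alone, 9 genes were higher and 6 lower against ductal cells with all UMIs, and the share over all genes was not counted there.

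**Figure D4:**
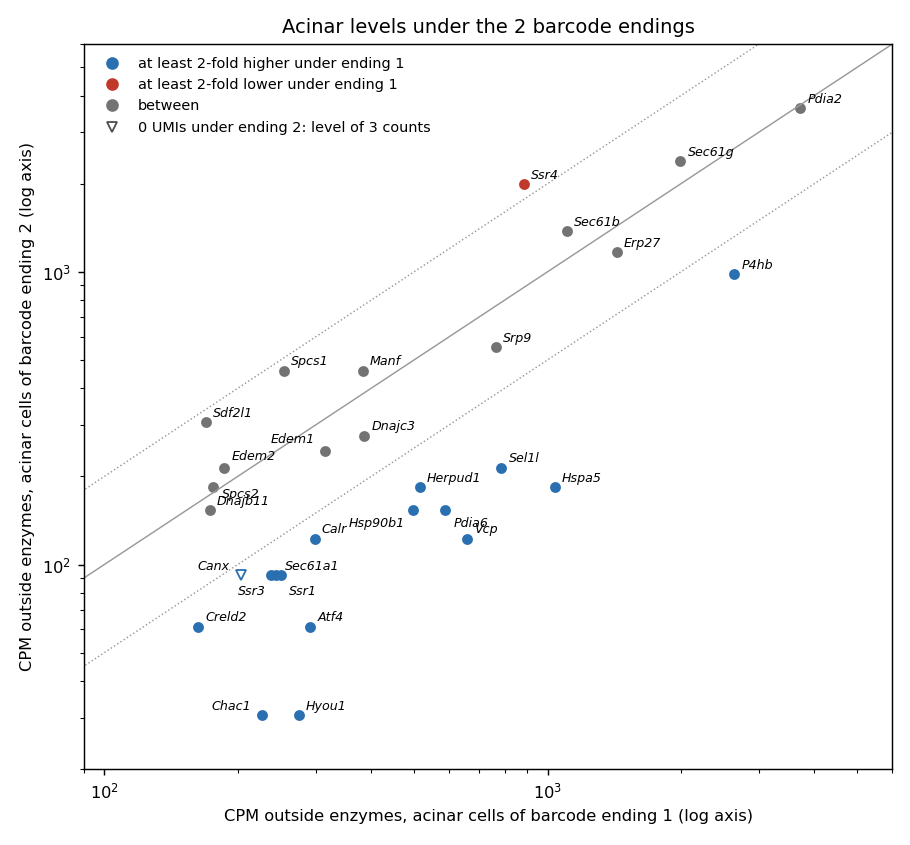
Level of each of the 30 genes over the floor in acinar cells of barcode ending 1 (217 cells, horizontal) and ending 2 (45 cells, vertical), in CPM of UMIs outside the enzymes on log axes, with equal levels on the solid line and 2-fold differences on the dotted lines. Hspa5, Vcp, Sel1l, Pdia6 and P4hb lie below the lower dotted line, Pdia2 and Erp27 near the solid line and Ssr4 above the upper dotted line.

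Acinar cells also varied in how much of their RNA was enzyme. The share ran from 23.0% to 87.3%, with a median of 70.7%, and 110 cells had 55 to 70% and 143 had 70% or more. Below 55% there were 9 cells. The 39 genes took 2.12% (2.05 to 2.19) of the UMIs outside the enzymes in the 55 to 70% cells and 2.11% (2.04 to 2.19) in the cells with 70% or more. Of 29 genes over the floor, 0 were higher and 0 lower by 2-fold (1.08% and 4.31% of all genes tested were). Within that range Pdia2 and P4hb went opposite ways. Pdia2 stood at 4865 against 2719.8 CPM in the cells with the larger enzyme share, a ratio of 1.79 (1.59 to 2.02), and P4hb at 1860.3 against 3128 CPM, a ratio of 0.595 (0.513 to 0.689). Vcp was 0.566 (0.415 to 0.767), Hsp90b1 0.612 (0.429 to 0.865), Sel1l 0.704 (0.532 to 0.929) and Hspa5 0.769 (0.606 to 0.973), while Erp27 was 0.945 (0.782 to 1.14). Since 40 of the 143 cells and 5 of the 110 carried ending 2, the ratios were also taken within ending 1 (103 and 105 cells). There 0 of 27 genes were higher and 0 lower by 2-fold (0.786% and 3.54% of all genes tested), and Pdia2 was 1.80 (1.59 to 2.04), P4hb 0.630 (0.541 to 0.733), Vcp 0.631 (0.461 to 0.858), Hspa5 0.863 (0.679 to 1.10) and Sel1l 0.778 (0.584 to 1.03). The last 2 intervals include 1. The cells were divided by a share that the enzymes and the other transcripts both set.

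These values also depended on the total, since other secreted acinar products were 21.1% of the UMIs outside the enzymes in the 55 to 70% cells and 32.7% in the cells with 70% or more. With those and immunoglobulins left out as well, the 39 genes took 2.68% (2.59 to 2.78) and 3.14% (3.04 to 3.25). Of the 29 genes over the floor, 2 were then higher and 0 lower (2.94% and 2.39% of all genes tested), namely Pdia2 at 2.10 (1.86 to 2.37) and Spcs2 at 2.23 (1.24 to 4.11). P4hb stayed below 1 at 0.697 (0.601 to 0.808) and Vcp at 0.664 (0.487 to 0.90), while the intervals of Hspa5, at 0.902 (0.711 to 1.14), Sel1l, at 0.826 (0.623 to 1.09), and Hsp90b1, at 0.718 (0.504 to 1.01), include 1. Within ending 1 Pdia2, at 2.11 (1.86 to 2.39), was the 1 gene of 27 called higher and 0 were lower (2.41% and 2.01%), P4hb was 0.737 (0.632 to 0.857), and the interval of Vcp, at 0.738 (0.539 to 1.00), includes 1.

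**Figure D5:**
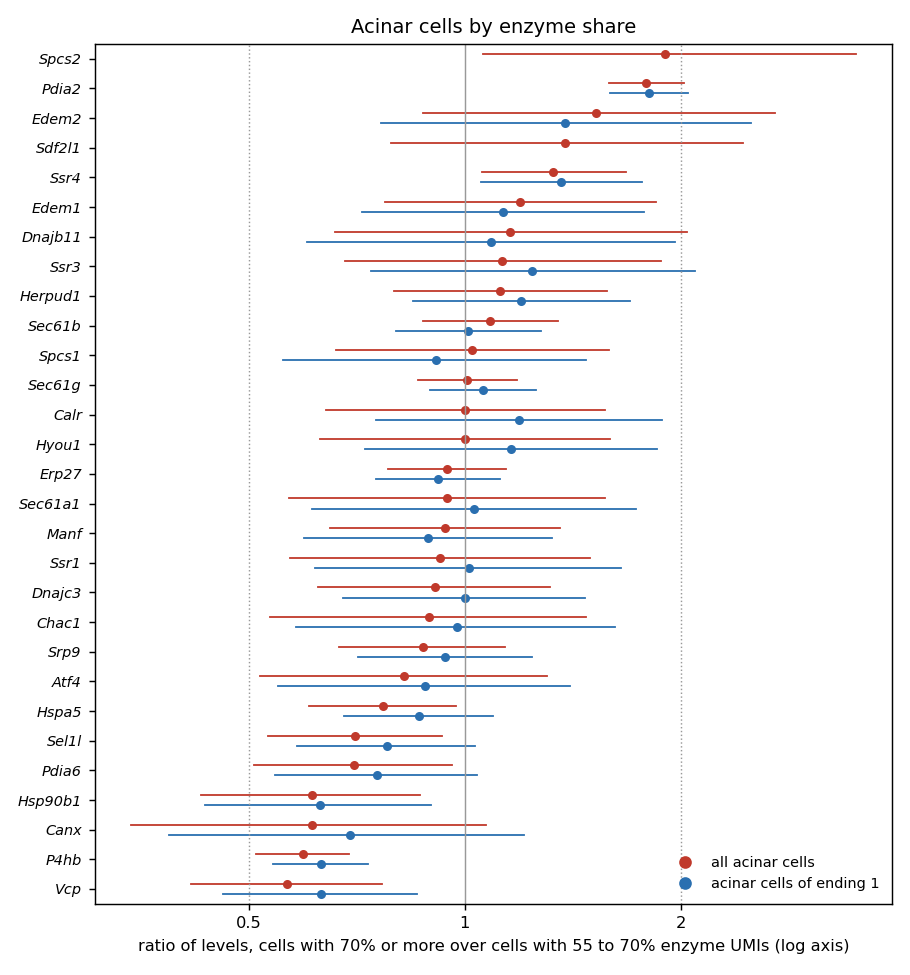
Ratio of the level in acinar cells with 70% or more enzyme UMIs to that in cells with 55 to 70%, outside the enzymes, on a log axis with exact 95% intervals, for all acinar cells (red) and those of ending 1 (blue). Pdia2 lies near 1.79 and P4hb near 0.595, with Erp27 and Sec61g close to 1.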

How the data were processed

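The authors deposited 1 table of raw UMI counts per gene and cell, per the whole-number values and the labels, made from 10x Genomics libraries. Cell Ranger and the build mm10 stand, with neither version nor role, in the submitters' processing notes; a filter on cells was not given in the sources used here. In total 2353008 UMIs were counted in 728 cells (median 2085.5, range 1004 to 53222) on 14793 rows, and 4 symbols on 2 rows each were summed. The endings of barcodes are not tied to the 2 replicates, so the planned tests on sums per sample were not run and no p-value is given. Where nothing says how cells were assigned to animals, the intervals measure counting only.

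UMIs were summed over the cells that met exactly 1 class rule, and 9 cells that met more were left out. No doublet caller was run, and the 7 acinar copies of barcodes shared by both endings were kept in the main values. Levels are CPM with exact 95% Poisson intervals, ratios have exact conditional Poisson intervals, and shares Clopper-Pearson intervals (scipy 1.17.1, numpy 2.4.6, pandas 2.3.3, Python 3.11.15; figures with matplotlib 3.10.9). A gene with 0 UMIs in a class was put at 3 counts over that class. This gives the ratios written with 3 counts in place of 0, which the figures mark "at least". Such a ratio lies further from 1 than the end of the exact interval. Doubling or halving among genes with at least 50 UMIs over both classes was the rule for a call. Every one of the 39 genes is accounted for, with full values for those over the floor, and from the list of other genes the 5 highest and 5 lowest acinar-to-ductal ratios were named. The members and lists were chosen with earlier results of these data known. The script was checked on simulated counts. Alternatives were the total, the floor, class thresholds, cells meeting more than 1 rule, shared barcodes, ending 1 alone, thinning to 1000 UMIs and equal weight per cell. The comparisons by ending and of 2 bands of enzyme share, and the alternatives run on the total without enzymes, were added after seeing the data. Gene positions are from GENCODE M21 (GRCm38). Exons of Hsp90b1, Manf and Pdia4 overlap another gene on the same strand there, and their counts may be shared with it. UMIs from identical copies of a gene were assigned by the authors' counting.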

Additional observations from a re-analysis of the deposited data

How the results depend on the processing

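The total decided most calls. With all UMIs 9 genes were higher and 8 lower than in ductal cells, 9 and 9 than in endothelial and 12 and 3 than in B cells. Without enzyme UMIs these were 24 and 2 (summed ratio 3.69), 23 and 2 (4.18), and 27 and 0 (5.74). Without other secreted acinar products and immunoglobulins as well they were 26 and 0 (4.99), 26 and 1 (5.65), and 31 and 0 (7.63). Log2 ratios that changed sign without enzymes, with the value under the third total in parentheses, were Hsp90b1 0.70 (1.14) and Ssr1 0.60 (1.04) against ductal cells. Against endothelial cells they were Hsp90b1 0.57 (1.00), Calr 0.072 (0.51), Canx 0.32 (0.75), Pdia4 0.56 (1.00), Ssr2 0.26 (0.69) and Spcs1 0.14 (0.58), and against B cells Calr 0.69 (1.10) and Spcs2 0.72 (1.13). Under the third total alone Calr (0.26), Spcs1 (0.26) and Spcs2 (0.18) changed sign against ductal and Spcs2 (0.36) against endothelial cells. These shifts follow from the totals.

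For the alternatives in this paragraph the share over all genes was not counted, so their counts are descriptions only. With stricter class thresholds and all UMIs, 5, 4 and 7 genes were higher than in ductal, endothelial and B cells. Lower were 6, 8 and 3. These counts rest on fewer cells and the same floor. The summed ratios were 0.987, 1.09 and 1.5, the first on the other side of 1. Chac1 and Hyou1 lost the call against each of the 3 classes. Among the other calls lost were Hspa5 and Sel1l against endothelial and Pdia6 against B cells, and the cause was not tested. Thinned to 1000 UMIs, 5 were higher and 0 lower against ductal cells, 4 and 2 against endothelial (ratio 1.35), and 8 and 0 against B cells (ratio 1.98). The floor of 50 UMIs was kept on the thinned counts, so a gene could lose its call by falling under it. The low numbers after thinning, 0 among them, are therefore no sign that a difference was absent. Chac1, Hyou1 and Edem1 were no longer called higher against any of the 3 classes. Without the floor 6 were lower than in B cells, and with ending 1 alone 1 was. In the family without enzyme UMIs, the 2 genes lower than in ductal cells became 1 with equal weight per cell, 1 with ending 1 alone and 0 with stricter thresholds. Equal weight gave summed ratios of 4.54 to endothelial and 6.39 to B cells and 1 gene lower than in B cells, and stricter thresholds 17 genes higher than in B cells. Without the shared barcode copies no count moved by over 1.5 times.

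No paired analysis was possible because cells are not tied to replicates, and leaving out each replicate was not run for the same reason. Levels in ductal cells rest on 32 cells, where 1 UMI is 8.14 CPM outside the enzymes, and 7 of the 39 genes stayed under the floor there.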
